A study of Homo sapiens with 4 samples.

Results

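The genes of DNA replication, from the proteins that license origins to those that work at the moving fork, were followed in THP-1 cells given microRNA mimics. The group was 53 gene symbols chosen for their role in origin licensing, the replicative helicase, the polymerases, clamp loading and the lagging strand. The choice was made with earlier results of these data known. All 53 were measured among 17687 named genes (0.300%). Each was represented by 1 probe set of the array. THP-1 is a human monocytic leukaemia line; the cells were kept in medium with 100 ng/ml PMA, a phorbol ester, for 2 days, which turns them macrophage-like, and then received a mimic or a negative control with a cationic lipid for 24 h. PMA, the lipid and the line were common to all 4 groups, and the mimics were miR-151a-5p, miR-27b-3p, let-7d-5p and a negative control. There was 1 Affymetrix Clariom S array per group and no replicate, so every difference below is between 2 arrays, carries no p-value and has no replicate check, and precision is limited by the number of arrays. One mimic is let-7d-5p in its sample title but let-7a-5p in the texts on design and treatment. Its array is called the let-7d-5p array after the title, and the labels do not settle which of the pair was used. The methods list let-7a-5p and let-7d-3p among the mimics and no let-7d-5p, so the identity of this mimic is uncertain beyond that pair.

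Before a cell copies its DNA, the origin recognition complex marks origins, and CDC6 and CDT1 load the ring-shaped MCM helicase there, a step called licensing. The kinases CDC7 and CDK2 then recruit CDC45 and the GINS complex, which turn the ring into an active helicase, and primase, polymerases, the PCNA clamp and its loader follow. Many of these genes are transcribed as cells pass from G1 into S phase, under control of E2F factors, and monocytic leukaemia cells treated with PMA are known for leaving the cell cycle.

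Sequences are shown for let-7d-5p, let-7a-5p and miR-27b-3p because the seed, the part of a microRNA that pairs with target messages, distinguishes microRNA families. They are the mature RefSeq sequences (GRCh38.p14), written 5′ to 3′ with the seed, bases 2 to 8, in capitals. The mature let-7d-5p span lies at chr9:94178841-94178862 on the plus strand and that of miR-27b-3p at chr9:95085505-95085525 on the plus strand. For let-7a-5p there are 3 gene copies, and the mature span of 1 of them is chr11:122146568-122146589 on the minus strand.
let-7d-5p: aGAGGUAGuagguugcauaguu
let-7a-5p: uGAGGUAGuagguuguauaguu
miR-27b-3p: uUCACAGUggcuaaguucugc
The let-7 sequences share their seed and differ by U1A and U16C, with the let-7a-5p base first and positions counted from the 5′ end. The seed of miR-27b-3p differs from theirs.

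The values deposited were log2 signals from RMA, which equalizes the arrays, and the median over named genes lay between 7.24 and 7.29 on the 4 arrays. A level at or below 5.34, the 95th percentile of 348 olfactory receptor genes, was taken as not above background. Of the 53 replication genes, 50 were above that floor on all 4 arrays. LIG1 was above it on none, MCM10 only on the miR-151a-5p array, and DNA2 on all but the miR-27b-3p array. Of 19 measured monocyte and macrophage markers, 18 were above the floor on every array, among them CD14, CD68, CSF1R and ITGAM. Of 12 T and NK cell markers, 4 were above it on all arrays, CD3G, CD5, NKG7 and GNLY. Of 6 B cell markers, 3 were, CD79A, CD79B and PAX5. CD3D, CD2, CD8A and MS4A1 were at or below it on all 4. In 1 label field the cells are called lymphocyte-like. The summed linear signal of the monocyte and macrophage markers lay between 708478 and 722742, a sum weighted to genes of high signal. The median difference of these markers from the control was -0.01 with miR-151a-5p, -0.04 with miR-27b-3p and 0.01 with let-7d-5p. CD163 differed most, at 0.74 with let-7d-5p. CD3D and the epithelial marker CDH1, both below the floor on all arrays, were the only markers past 2-fold from the control, at -1.28 and -1.63 with let-7d-5p. The median difference of 10 reference genes was -0.04 with miR-151a-5p, -0.05 with miR-27b-3p and -0.07 with let-7d-5p.

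The replication genes as a group lay above the control on the miR-151a-5p array and below it on the miR-27b-3p array. With miR-151a-5p, 48 of 53 were higher than on the control array and 5 were lower, and the median log2 difference was 0.67 (1.59-fold), where 47.3% of all named genes were higher. With miR-27b-3p, 49 were lower and 4 were higher, and the median was -0.49 (1.40-fold lower), where 48.4% of all genes were lower. With let-7d-5p, 34 were lower and 19 higher, and the median was -0.06, beside 49.3% of all genes lower. Some of these members were under the floor on both arrays compared. Without them, 47 were higher with miR-151a-5p, 47 lower with miR-27b-3p and 32 lower with let-7d-5p. The median over all named genes was -0.01, 0.01 and 0.00 in these comparisons, and the standard deviation over genes above the floor, which describes genes rather than cultures, was 0.32, 0.33 and 0.30. In bulk RNA, a different share of cells in S phase and a different amount of these messages per cell cannot be told apart.

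A difference of 2-fold or more was used as the size rule. On the miR-151a-5p array 13 members (24.5%) were at least 2-fold higher than on the control, against 0.972% of all named genes, and none of the 53 was 2-fold lower, against 0.328%. Of the 172 genes that were 2-fold higher on that array, these 13 made up 7.56%. On the miR-27b-3p array 2 members, GINS1 and LIG1, were 2-fold lower, against 0.503% of all genes, and none was 2-fold higher, against 0.605%. LIG1 was below the floor on all arrays, which leaves GINS1 as the measured one, and with each array centred on its median GINS1 was at -0.97, inside 2-fold. At 1.5-fold the miR-27b-3p array held 21 members that were lower, against 4.7% of all genes, and the miR-151a-5p array 32 that were higher, against 5.29%. The let-7d-5p array had no member past 2-fold in either direction, where 0.588% of all genes were higher and 0.407% lower, and 1 member, TICRR, at 1.5-fold lower, against 3.56%.

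**Figure D1:**
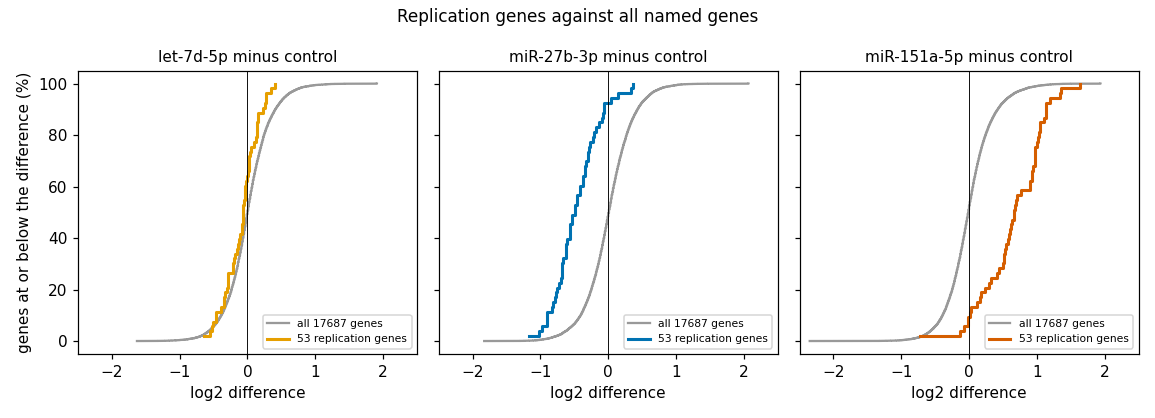
Cumulative share of genes (vertical axis, percent) at or below a log2 difference from the negative control array (horizontal axis) for each mimic, with the 53 replication genes in colour and all 17687 named genes in grey. The replication genes lie to the left of all genes with miR-27b-3p (median -0.49) and to the right with miR-151a-5p (median 0.67), while on the let-7d-5p array their median is -0.06.

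Levels are given below as log2 signals in the order control, then let-7d-5p, then miR-27b-3p, then miR-151a-5p. They compare 1 gene between arrays, since the probe sets of different genes have no common scale.

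Among the factors that load the helicase, CDT1, which brings the MCM ring to the origin, stood at 5.78, 6.04, 5.48 and 7.41. The miR-151a-5p array was the high one, 3.10-fold above the control, and this was the largest of all the members' differences from the control on that array. The other 3 levels lay between 5.48 and 6.04, not far above the floor. CDC6, the ATPase that works with CDT1, was at 10.93, 10.78, 10.23 and 11.98, so that the miR-151a-5p array was 2.07-fold above and the miR-27b-3p array 1.62-fold below the control. GMNN encodes geminin, an inhibitor of CDT1, and its levels were 7.73, 7.17, 6.83 and 8.30. The inhibitor thus lay on the same side of the control as CDT1 and CDC6 on both arrays, 0.57 above it with miR-151a-5p and 0.90 below it with miR-27b-3p.

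The 6 subunits of the origin recognition complex did not move as a unit. ORC1, an ATPase subunit, was at 9.98, 9.47, 9.35 and 10.96, and ORC6 at 7.17, 6.98, 6.82 and 8.53. Both were high on the miR-151a-5p array, ORC6 2.57-fold and ORC1 1.97-fold above the control, and lowest on the miR-27b-3p array. ORC2, a core subunit, ran the other way, at 9.62, 9.34, 9.53 and 8.90, with its lowest level on the miR-151a-5p array. ORC4 was at 10.57, 10.92, 10.91 and 10.56, so the let-7d-5p and miR-27b-3p arrays were the higher ones. ORC3 and ORC5 differed from the control by between -0.37 and 0.16 on every mimic array. Of the 53 members, ORC2 and ORC4 were the only ones with a lower level on the miR-151a-5p than on the miR-27b-3p array.

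All 6 subunits of the MCM ring, MCM2 to MCM7, were above the control on the miR-151a-5p array and below it on the miR-27b-3p array. Their differences spanned 0.54 to 1.14 on the former and -0.72 to -0.37 on the latter, with medians of 0.96 and -0.60. MCM7 was at 11.22, 11.36, 10.85 and 12.36, and was the subunit furthest above the control with miR-151a-5p. MCM2 was at 9.28, 9.26, 8.56 and 10.23, and was the subunit furthest below it with miR-27b-3p. MCM5 was at 11.10, 10.80, 10.54 and 11.64, the smallest difference between those arrays in the ring. On the let-7d-5p array the ring had a median of 0.00, with MCM5 at -0.30 and the other subunits between -0.02 and 0.14. Between the miR-151a-5p and the miR-27b-3p array, each of the 6 differed by at least 2.14-fold.

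Of the 9 genes that fire origins and switch the helicase on, 8 were above the control with miR-151a-5p and all 9 below it with miR-27b-3p. MCM10, among them, was under the floor on both the control and the miR-27b-3p array, so its side there is not measured. CDC45, which rides with MCM and GINS as part of the active helicase, was at 8.91, 8.87, 8.08 and 10.25. It was 4.50-fold higher with miR-151a-5p than with miR-27b-3p, the largest such difference of all members, and the let-7d-5p level was within 0.04 of the control. GINS1, a subunit of the 4-part GINS complex, was at 9.61, 9.41, 8.59 and 10.32, so the miR-27b-3p array was the low one, 2.03-fold under the control. GINS2 was at 8.72, 8.61, 8.04 and 9.86, with the miR-151a-5p array 2.20-fold above the control. GINS4 showed the same order, at 8.05, 7.59, 7.37 and 8.71. GINS3, in the same complex, kept within 0.23 of the control, at 8.91, 8.94, 8.70 and 9.14.

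The kinase that fires origins was split between its subunits. CDC7, the catalytic subunit, was at 7.69, 7.66, 7.36 and 8.59, high on the miR-151a-5p array. DBF4, its activating partner, was at 9.11, 8.65, 8.58 and 9.04, so the control was the highest and no mimic array lay above it. TICRR, which encodes treslin and helps CDC45 to bind, was at 6.33, 5.69, 6.10 and 6.36, with the let-7d-5p array the lowest. MCM10, a helicase activator, was at 4.99, 4.91, 4.81 and 5.66, above the floor with miR-151a-5p alone.

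At the fork, the protection genes were all above the control with miR-151a-5p and below it with miR-27b-3p. CLSPN, which encodes the checkpoint mediator claspin, was at 9.74, 9.78, 9.21 and 10.88, 2.20-fold above the control with miR-151a-5p. TIMELESS and TIPIN, which form 1 complex that travels with the fork, differed from the control by 0.44 and 0.41 on that array and by -0.75 and -0.41 on the miR-27b-3p array. TIPIN was also lower on the let-7d-5p array, by 0.52. WDHD1, a link between helicase and polymerase alpha, was at 8.68, 8.34, 8.19 and 9.19.

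Among primase and polymerase genes, POLE2 and PRIM1 had the largest differences between the miR-151a-5p and the miR-27b-3p array. POLE2, the second subunit of polymerase epsilon, the leading-strand enzyme, was at 6.62, 6.64, 5.65 and 7.64. The let-7d-5p level was within 0.02 of the control, and the miR-151a-5p array was 3.97-fold above the miR-27b-3p array. The miR-27b-3p level of 5.65 was not far above the floor of 5.34, which limits the precision of that ratio. PRIM1, the catalytic primase subunit, was at 9.44, 9.53, 8.67 and 10.48, again with let-7d-5p near the control. PRIM2, POLA1 and POLA2, the rest of the primase and polymerase alpha complex, differed by 0.50 to 0.68 with miR-151a-5p and by -0.67 to -0.34 with miR-27b-3p. POLE, the catalytic subunit of epsilon, was at 7.63, 7.35, 7.02 and 7.96.

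Polymerase delta, the lagging-strand enzyme, was mixed. POLD1, its catalytic subunit, was at 6.46, 6.07, 6.18 and 6.45, and POLD2 at 11.81, 11.46, 11.74 and 12.11. For both, the let-7d-5p array was the lowest. POLD3, an accessory subunit, was at 10.33, 10.26, 9.87 and 11.02, with the miR-151a-5p array high and the miR-27b-3p array low. POLE3, a histone-fold subunit of epsilon that other chromatin complexes also use, was at 9.85, 10.25, 9.99 and 10.38, above the control on all mimic arrays.

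PCNA, the sliding clamp that holds polymerases on DNA, was at 9.97, 10.12, 9.67 and 11.16. Its miR-151a-5p level was 2.28-fold above the control. The clamp loader RFC was above the control on the miR-151a-5p array in all 5 subunits, by 0.60 to 1.03. RFC3 was at 10.10, 9.88, 9.47 and 11.10 and RFC5 at 10.17, 10.31, 9.75 and 11.20, both 2-fold or more above the control with miR-151a-5p and both lowest with miR-27b-3p. RFC1, the large subunit of the loader, was at 10.19, 10.46, 10.55 and 10.79, so all mimic arrays were above the control, and RFC2 was within 0.04 of the control with miR-27b-3p. RPA, which coats single-stranded DNA, is made of 3 subunits. RPA1, RPA2 and RPA3 differed between the miR-151a-5p and the miR-27b-3p array by 0.71, 0.63 and 0.76, and none was past 2-fold in any comparison with the control.

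Genes that finish the lagging strand and pack new DNA into chromatin had the lowest median of any role on the miR-27b-3p array, -0.86, with all 6 lower. FEN1, the nuclease that trims Okazaki fragments, was at 11.38, 11.24, 10.47 and 12.28. CHAF1B, a subunit of the histone chaperone CAF-1, was at 9.17, 8.84, 8.26 and 10.27, and its partner CHAF1A at 8.04, 8.19, 7.25 and 9.01. For these genes the miR-151a-5p array was the highest and the miR-27b-3p array the lowest, and CHAF1B differed 4.03-fold between them. RNASEH2A, which removes RNA from DNA, was at 10.21, 10.18, 9.39 and 10.72. DNA2, a nuclease of long flaps, was at 5.58, 5.72, 5.09 and 5.44, close to the floor. LIG1, the ligase that seals the fragments, was at 4.73, 4.44, 3.56 and 4.85, none of them above the floor, so its difference of -1.17 with miR-27b-3p has no measured size.

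**Figure D2:**
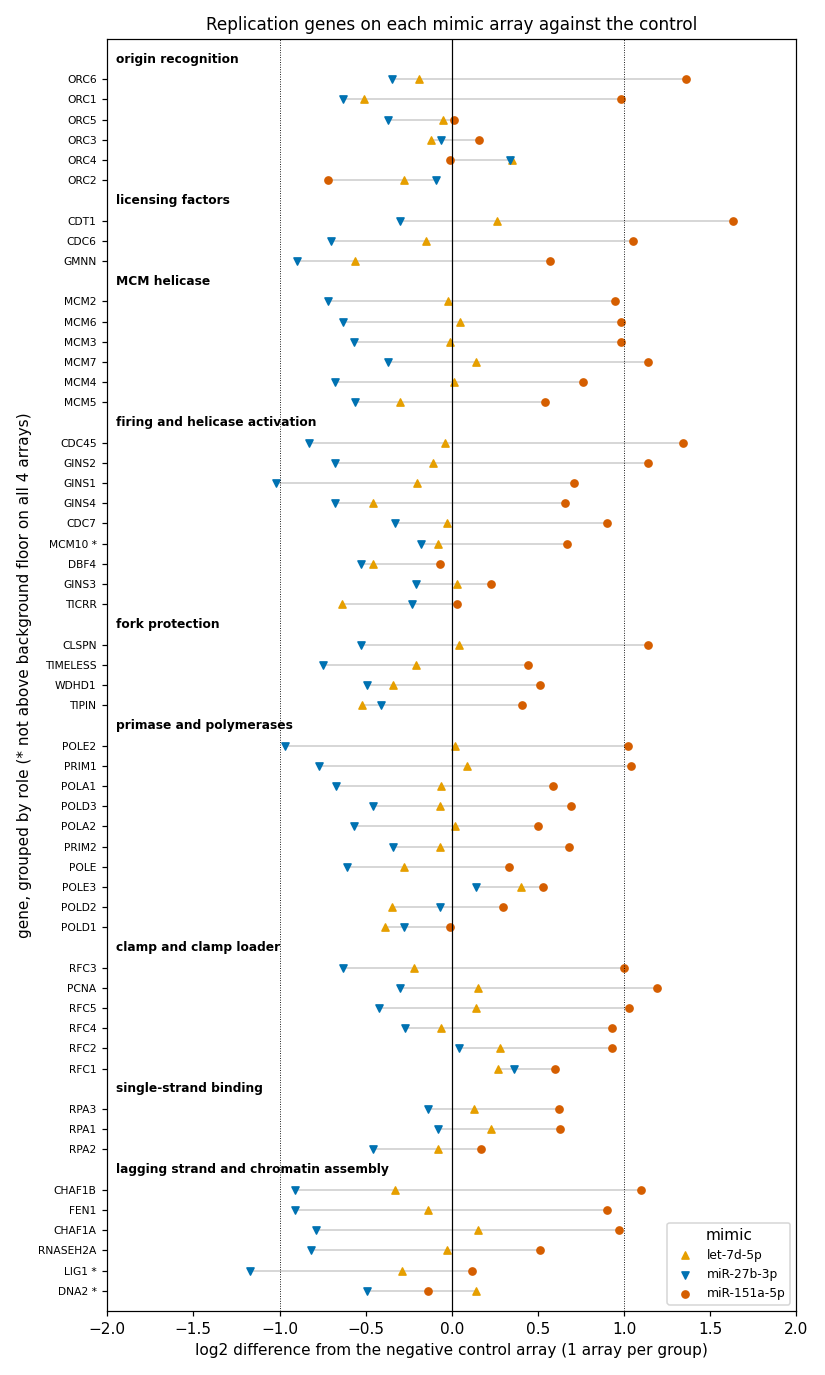
Log2 difference from the negative control array (horizontal axis) of each of the 53 replication genes (vertical axis, grouped by role) on the 3 mimic arrays, with grey lines joining the lowest and highest, dotted lines at 2-fold and a star where a gene was not above the background floor on all arrays. All 6 MCM genes lie below the control with miR-27b-3p and above it with miR-151a-5p, whereas ORC2 lies furthest below the control with miR-151a-5p, at -0.72.

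**Figure D3:**
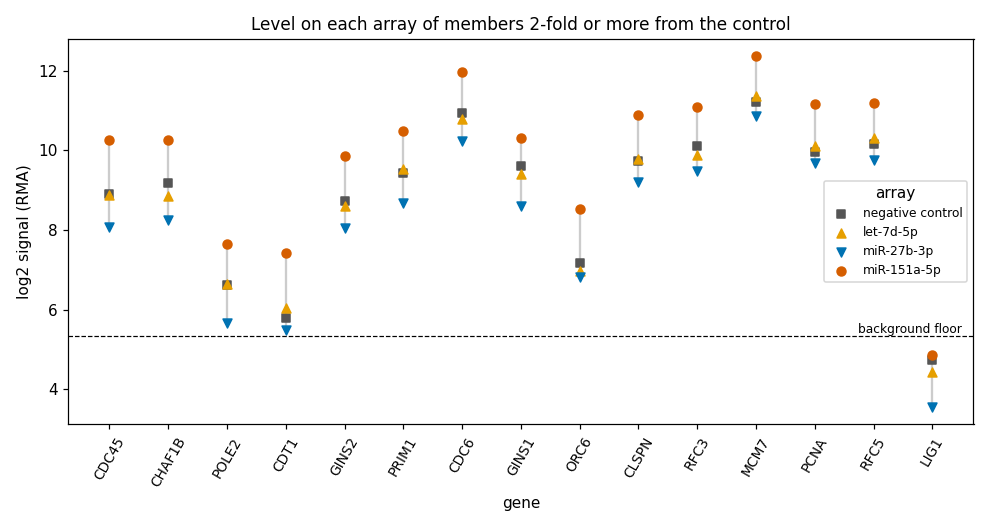
Log2 signal (vertical axis) on each of the 4 arrays for the 15 genes that were 2-fold or more from the control on a mimic array (horizontal axis, ordered by the difference between the miR-151a-5p and the miR-27b-3p array); each point is 1 array, the dashed line is the background floor of 5.34, and levels are comparable within a gene only. The miR-151a-5p array is the highest and the miR-27b-3p array the lowest for every gene shown, and LIG1 lies below the floor throughout. The genes were picked by their difference from the control, which favours this order, and over all 53 members it held for 41.

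Within each gene, the order of the arrays was mostly the same. The miR-151a-5p array was the highest of the 4 for 48 of 53 members, against 22.7% of all named genes, and the exceptions were ORC2, ORC4, DBF4, POLD1 and DNA2. The miR-27b-3p array was the lowest for 43 members, against 25.4% of all genes. Both held for 41 members, against 9.15%. Of the 12 members without that order, 3 belong to the origin recognition complex, 3 to the polymerases and 2 to the clamp loader, and the rest were DBF4, TICRR, TIPIN and DNA2.

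The mimic arrays were also set against each other, which leaves the control array out. Between miR-151a-5p and miR-27b-3p, 51 of 53 members were higher with miR-151a-5p (46.6% of all genes), with a median difference of 1.23 (2.35-fold). At 2-fold, 34 members (64.2%) were higher, against 1.62% of all genes, and none was lower, against 0.65%. They were 11.8% of the 287 genes past that size. LIG1, below the floor on all arrays, was 1 of them. With only members above the floor on at least 1 of these 2 arrays, 33 remained. At 3-fold, 16 members were higher, against 0.435% of all genes. Against the let-7d-5p array, miR-151a-5p had 50 members higher (46.5% of all genes), with a median of 0.82, and 15 of them at least 2-fold (1.03% of all genes). MiR-27b-3p had 46 lower than on the let-7d-5p array (49% of all genes), with a median of -0.38, and no member 2-fold lower (0.548% of all genes); POLE2 had the largest such difference, -0.99.

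Differences that share the control array are not independent, so pairs of differences with no array in common were compared across genes. Of the 53 members, 47 were higher with miR-151a-5p than with let-7d-5p and also lower with miR-27b-3p than with the control. The same held for 3085 of the 12160 genes above the floor. Across members Pearson's r between these differences was -0.49 and Spearman's rho -0.48 (n = 53 genes), beside -0.18 and -0.14 across 12160 genes above the floor. With the let-7d-5p and control arrays exchanged, 43 members lay on those sides, beside 2900 of the 12160 genes. There r was -0.50 and rho -0.46 across members, beside -0.12 and -0.10 across the 12160 genes. The contrast of miR-151a-5p with miR-27b-3p against that of let-7d-5p with the control gave an r of 0.01 across members. Genes are not independent replicates, the 4 arrays were normalized together, and these values describe the arrays.

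**Figure D4:**
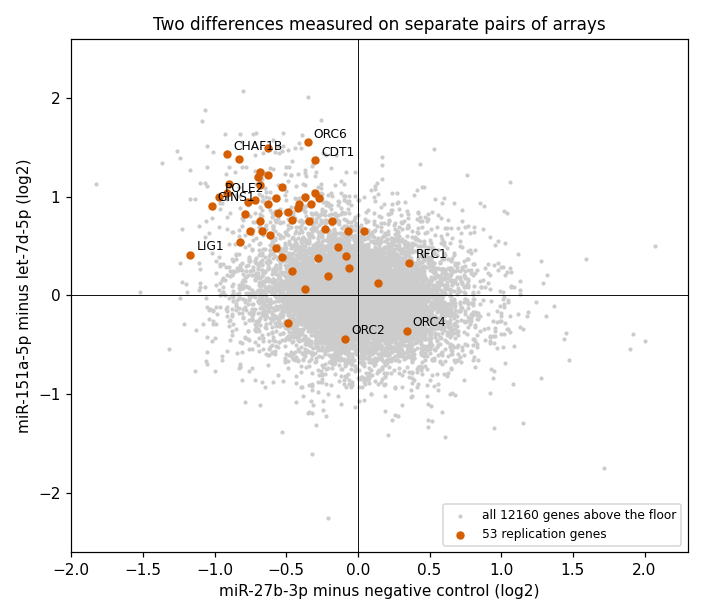
Log2 difference between the miR-27b-3p and negative control arrays (horizontal axis) and between the miR-151a-5p and let-7d-5p arrays (vertical axis), which share no array; each point is a gene, grey for 12160 genes above the floor and coloured for the 53 replication genes. Of the replication genes, 47 lie in the upper left, where 3085 of the 12160 genes lie. ORC2, ORC4 and DNA2 are the 3 replication genes below 0 on the vertical axis.

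Promoters were examined because most members were above the control with miR-151a-5p and below it with miR-27b-3p, and E2F factors bind many of these genes. The window ran from 250 bases before to 50 after each start in RefSeq (GRCh38.p14), and 46 of the 53 members matched an entry. The E2F site was searched on both strands as TTTCGCGC, TTTGGCGC, TTTCCCGC or TTTGCCGC. It was present for 21 of the 46 members (45.7%) and for 3.99% of 27305 genes, or in 35% of 60 member windows and 3.31% of all 35116 windows. It stood in 17 of the 30 matched members that were 2-fold higher with miR-151a-5p than with miR-27b-3p, and in 4 of the other 16 (GINS3, ORC3, POLE and TIPIN). A CCAAT box, letters CCAAT on either strand, was found for 27 of the 46 (58.7%) and 39.7% of all genes. The cell cycle homology region, TTTGAA or TTCGAA on either strand, was found for 3 of the 46 (6.52%) and 19.5%. Split in the same way, the CCAAT box stood in 18 of the 30 and 9 of the other 16. The cell cycle homology region stood in 1 of the 30 and 2 of the other 16. None of these splits was tested. None of these letter strings contains another. A match describes letters and is not a shown binding site.

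The 4 members with the largest difference between the miR-151a-5p and the miR-27b-3p array, CDC45, CHAF1B, POLE2 and CDT1, are shown to let their starts be compared. Matches to any of the searched motifs are in capitals. CDC45 has 3 annotated starts and the first by coordinate is printed, at chr22:19479216-19479515 (plus strand); the others are CHAF1B at chr21:36385142-36385441 (plus), POLE2 at chr14:49688165-49688464 (minus) and CDT1 at chr16:88803539-88803838 (plus).
CDC45: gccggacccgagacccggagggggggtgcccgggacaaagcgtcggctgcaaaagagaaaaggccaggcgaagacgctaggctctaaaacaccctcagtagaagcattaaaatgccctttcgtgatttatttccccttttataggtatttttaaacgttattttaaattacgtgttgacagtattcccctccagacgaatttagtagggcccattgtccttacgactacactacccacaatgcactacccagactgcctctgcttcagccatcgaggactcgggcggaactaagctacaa
CHAF1B: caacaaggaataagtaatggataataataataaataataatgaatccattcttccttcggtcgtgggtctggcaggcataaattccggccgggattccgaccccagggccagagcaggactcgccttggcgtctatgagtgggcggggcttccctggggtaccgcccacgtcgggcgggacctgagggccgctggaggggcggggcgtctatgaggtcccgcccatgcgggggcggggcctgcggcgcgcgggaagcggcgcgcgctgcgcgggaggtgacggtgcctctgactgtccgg
POLE2: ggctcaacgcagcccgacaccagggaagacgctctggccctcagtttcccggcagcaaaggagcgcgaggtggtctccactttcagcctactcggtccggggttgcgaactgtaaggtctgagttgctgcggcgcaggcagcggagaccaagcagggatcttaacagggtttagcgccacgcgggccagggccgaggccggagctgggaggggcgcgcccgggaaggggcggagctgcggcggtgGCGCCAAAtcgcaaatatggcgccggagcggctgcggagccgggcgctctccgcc
CDT1: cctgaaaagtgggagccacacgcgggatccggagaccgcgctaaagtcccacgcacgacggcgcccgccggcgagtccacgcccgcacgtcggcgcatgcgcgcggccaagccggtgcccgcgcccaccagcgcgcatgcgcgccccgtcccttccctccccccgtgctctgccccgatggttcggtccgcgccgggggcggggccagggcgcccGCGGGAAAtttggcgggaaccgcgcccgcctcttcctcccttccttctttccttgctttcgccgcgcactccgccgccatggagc
POLE2 held an E2F match that began 5 bases before its start (GCGCCAAA, the complementary strand of TTTGGCGC), and CDT1 held 1 that began 35 bases before (GCGGGAAA, complementary to TTTCCCGC). The printed windows of CDC45 and CHAF1B held none of the searched letters, while their log2 differences between the miR-151a-5p and the miR-27b-3p array were 2.17 and 2.01. Both other CDC45 windows held a CCAAT box and neither an E2F match.

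Genes of the same pathway that were not members followed in part. Of 19 measured genes of licensing and firing, 17 were above the control with miR-151a-5p (median 0.84) and 17 below it with miR-27b-3p (median -0.41). Over all named genes 47.3% were higher with miR-151a-5p and 48.4% lower with miR-27b-3p. At 2-fold these shares were 0.972% and 0.503% of all named genes. Those past 2-fold above the control with miR-151a-5p were CDC25A (1.60), the phosphatase that activates CDK2, CCNE2 (1.49) and CCNA2 (1.19), its cyclins, CDK1 (1.14), FBXO5 (1.25), an inhibitor of the ligase that degrades geminin, and DTL (1.38), which directs the degradation of CDT1. DTL and MCM8, a helicase of repair, were also 2-fold below the control with miR-27b-3p, at -1.01 and -1.10. DTL was at 11.61, 11.54, 10.60 and 12.99, so that it lay on the same side of the control as its substrate CDT1 on the miR-151a-5p and the miR-27b-3p array.

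The other fork, polymerase and clamp genes stood closer to the control. Of 32 measured, 24 were above it with miR-151a-5p (median 0.24), or 75%, beside 47.3% of all named genes. With miR-27b-3p 17 were below it (median -0.04), or 53.1%, near the 48.4% of all named genes. Past 2-fold there was 1, the nuclease EXO1, at 1.21 with miR-151a-5p, beside 0.972% of all named genes higher. Of 14 genes of replicated chromatin and cohesion, 12 were above the control with miR-151a-5p (median 0.54) and 11 below it with miR-27b-3p (median -0.20). These were 85.7% and 78.6%, beside the same shares of all named genes. UHRF1, which guides maintenance of DNA methylation, was higher by 1.21 with miR-151a-5p, and HELLS, a chromatin remodeller, by 1.06.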

How the data were processed

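The deposited values were log2 signals, 1 for each probe set and array. According to the submitters' processing notes, the authors made them in Transcriptome Analysis Console 4.0 by RMA, which corrects background, equalizes the arrays and summarizes probes, so a shift common to all genes would have been removed; a genome build for the probes was not given in the sources used here. No further normalization was applied. Of 21448 probe sets, 17709 named 1 gene, 0 named several and 3739 none. A gene with several probe sets was taken at the one with the highest mean, and no replication gene had several. Differences are log2 values of 1 array minus another, with 2-fold as the size rule, and 3-fold, the ratio used in the study's lists, and 1.5-fold as alternatives. With 1 array per group no test was run. Values are given for members past 2-fold from the control, for the largest and smallest differences of miR-151a-5p from miR-27b-3p overall and within each role, and for others where they complete a complex; list genes are named if past 2-fold. The members, lists and motifs were chosen with earlier results of these data known. Calculations used scipy 1.17.1, statsmodels 0.14.6, pandas 2.3.3 and numpy 2.4.6 under Python 3.11.15, with plots by matplotlib 3.10.9. The 2-fold counts and the median were tested on simulated data, with noise smaller than the spread between the real arrays. The floor, the motif search and the correlations were not part of that test.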

Additional observations from a re-analysis of the deposited data

How the results depend on the processing

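Each group held 1 array, so nothing here has a replicate error, and genes near the floor are limited by their low signal. No paired analysis was possible because no group has a second array. Alternatives were quantile normalization, centring, removal of a lowess trend, a 95th or 99th percentile floor, a pseudocount of 16 and the mean for the median. They kept the median member difference between -0.09 and -0.02 for let-7d-5p and between -0.53 and -0.44 for miR-27b-3p. It stayed between 0.63 and 0.71 for miR-151a-5p, and between 1.13 and 1.26 for miR-151a-5p against miR-27b-3p. The mean of probe sets could change no member value, since no replication gene had several. No called difference changed sign under any alternative. The 2 members 2-fold below the control with miR-27b-3p became 1 with quantile normalization, centring, the lowess correction or either floor, and 0 with the pseudocount or at 3-fold; at 1.5-fold they were 21. For miR-151a-5p the 13 higher members became 1 at 3-fold and 32 at 1.5-fold, with 1 lower at 1.5-fold. Of all 17687 named genes, 4 were 3-fold higher, 936 were 1.5-fold higher and 632 were 1.5-fold lower. The 5 members lower by sign became 3 with centring or the lowess correction. Between miR-151a-5p and miR-27b-3p 34 became 16 at 3-fold (0.435% of all named genes), and 1 was lower at 1.5-fold (924 of the 17687 genes). For let-7d-5p 1 was lower at 1.5-fold (3.56% of all named genes).

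The choice of reference array moved values most. With the mean of the other mimic arrays as reference, miR-27b-3p had 20 members 2-fold lower (0.718% of all named genes) and a median of -0.83, miR-151a-5p had 25 higher (1.05% of all genes) and 2 lower by sign (52.6%), and let-7d-5p had 11 higher by sign (50.8%). With the let-7d-5p array as reference, miR-27b-3p had 0 members 2-fold lower (0.548% of all genes) and 7 higher by sign (49.5%). In the same setting miR-151a-5p had 3 lower by sign (52.0%). Set against each other, miR-151a-5p and miR-27b-3p gave 34 members past 2-fold (LIG1 included), medians of 1.23 and -1.23, and 2 members of the other sign. The let-7d-5p array lay above miR-27b-3p in 46 members and below it in 7 (median 0.38), and below miR-151a-5p by a median of -0.82, with 15 members 2-fold lower and 3 higher by sign.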

Other observations

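Genes of the replication checkpoint did not share 1 direction. CHEK1, the checkpoint kinase, was at 9.92, 9.95, 9.50 and 10.88 on the control array, then with let-7d-5p, then with miR-27b-3p, then with miR-151a-5p, and MMS22L, which helps to repair stalled forks, at 10.17, 9.87, 9.70 and 11.09. Both were highest with miR-151a-5p and lowest with miR-27b-3p, as most replication genes were. ATR, the kinase upstream of CHEK1, was at 7.07, 6.04, 6.38 and 6.56, highest on the control array. It was the only checkpoint gene of the list that was 2-fold from the control, on the let-7d-5p array (-1.03), where 0.407% of all named genes were 2-fold lower. Over 9 measured checkpoint genes the median difference from the control was 0.30 with miR-151a-5p, -0.14 with miR-27b-3p and 0.10 with let-7d-5p.

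Polymerases that copy damaged DNA were set beside the replicative ones, a choice made after their values were seen. POLH was at 9.28, 9.75, 9.36 and 10.10, highest with miR-151a-5p, whereas POLI, at 7.59, 8.34, 7.93 and 7.72, was highest with let-7d-5p. POLK was at 11.86, 11.70, 11.75 and 11.52, lowest with miR-151a-5p. REV1 differed from the control by 0.34 with let-7d-5p, 0.08 with miR-27b-3p and 0.31 with miR-151a-5p, and PRIMPOL by 0.19, 0.27 and -0.12 in that order. REV3L lay within 0.09 of the control on every mimic array. CTC1, a subunit of a complex that recruits polymerase alpha to telomeres, was at 7.10, 7.09, 6.54 and 6.28, lowest with miR-151a-5p.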
